A study of Mus musculus with 5 samples.

Results

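Integrins are receptors for the extracellular matrix, and the genes described here encode 9 of their subunits, 6 alpha chains (Itga1, Itga2, Itga3, Itga5, Itga6 and Itgav) and 3 beta chains (Itgb1, Itgb4 and Itgb5). They were taken by symbol from the 17638 genes of the deposited table, and 9 of 9 were found and passed the filter on low values. CD31-positive cells of mouse hearts with a myocardial infarction were profiled by polyadenylated RNA sequencing at day 5, when the mice were 2 months old. There were 2 libraries of the genotype Tbx1cko, which the series describes as an endothelial knockout of the T-box transcription factor gene Tbx1, and they were set against 3 libraries labelled control. All came from a C57BL/6 background and all hearts were infarcted, so the comparison shows genotype after infarction and holds no uninjured heart. The Cre driver, the deleted part of Tbx1 and the alleles of the controls do not appear in the labels, which also leave unsaid whether each library is a separate animal. A p-value therefore measures only the spread between libraries, which may be technical.

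An integrin is a pair of an alpha and a beta chain that spans the membrane and binds a matrix protein outside the cell. Inside, most beta tails join the actin cytoskeleton through talin and kindlin, while the tail of Itgb4 binds the cytolinker plectin. Itgb1 is the common partner: it pairs with Itga1 or Itga2 to bind collagen, with Itga3 or Itga6 to bind laminin, and with Itga5 or Itgav to bind fibronectin. Itgav also pairs with Itgb5, a receptor for vitronectin, and Itga6 with Itgb4, the laminin receptor of epithelial hemidesmosomes that some vessels carry as well. In endothelium, laminin receptors hold cells to the basement membrane, and the fibronectin receptor of Itga5 and Itgb1 serves vessel growth.

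The series removes a T-box factor, so the promoter windows of the integrins were searched for the T-box core AGGTGT on either strand. RefSeq windows on GRCm38.p6, from 250 bases before to 50 bases after a transcript start, covered 7 of the 9 genes in 8 windows, since Itga3 has 2 starts. The core lay in 1 of the 8 windows, the upstream one of Itga3, and in 13.7% of all 32851 windows. The longer site AGGTGTGA, which contains the core, lay in 0 of the 8 and in 1.28% of all. A match is only a run of letters, and its absence from a window says nothing about the factor. The window with the core is printed below with that of Itgb1, the most abundant integrin here, and that of Itga5, the fibronectin-binding partner of Itgb1. Capitals mark the core, which begins 194 bases before the start of Itga3. The windows lie on the minus strand at chr11:95076665-95076964 (Itga3), on the plus strand at chr8:128685404-128685703 (Itgb1) and on the minus strand at chr15:103366742-103367041 (Itga5), and each is written 5′ to 3′ along its gene.
Itga3: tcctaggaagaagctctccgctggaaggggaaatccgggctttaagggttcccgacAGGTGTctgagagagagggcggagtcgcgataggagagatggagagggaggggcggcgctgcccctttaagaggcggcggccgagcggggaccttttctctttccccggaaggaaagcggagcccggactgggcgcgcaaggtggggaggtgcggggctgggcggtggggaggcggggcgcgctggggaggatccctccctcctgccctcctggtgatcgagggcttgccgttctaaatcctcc
Itgb1: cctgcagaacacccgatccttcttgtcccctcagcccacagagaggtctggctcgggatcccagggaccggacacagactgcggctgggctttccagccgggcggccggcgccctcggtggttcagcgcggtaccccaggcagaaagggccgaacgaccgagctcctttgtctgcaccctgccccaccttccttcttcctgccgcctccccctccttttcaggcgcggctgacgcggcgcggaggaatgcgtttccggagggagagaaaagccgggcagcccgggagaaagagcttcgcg
Itga5: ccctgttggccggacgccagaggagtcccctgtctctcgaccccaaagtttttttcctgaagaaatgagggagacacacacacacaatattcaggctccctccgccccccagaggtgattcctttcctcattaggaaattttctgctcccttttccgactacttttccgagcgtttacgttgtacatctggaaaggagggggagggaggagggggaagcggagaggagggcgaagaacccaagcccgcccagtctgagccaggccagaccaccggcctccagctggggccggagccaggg
Their GC content was 66.7%, 67.3% and 58.7%, against a median of 52.7% over all windows, and the Itga3 and Itgb1 windows held 24 and 27 CG dinucleotides.

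The libraries held 17769729 and 16061666 reads for Tbx1cko and 14689782 to 18617284 for control. Tbx1 itself, the check of the labels, had 18.3 and 17.3 normalised reads in Tbx1cko and 64.4, 72.7 and 69.6 in control, so the values go with the labels. Control replicate 2 stood apart: across genes, Pearson's r of its log2 values with the other 4 libraries was 0.859 to 0.889, where those 4 gave 0.98 to 0.988 among themselves. How far a gene deviated in it went with transcript GC content (Spearman rho 0.801 over 13748 genes, which are not independent replicates). The log2 difference of every integrin is therefore given with and without that library. With all 5 libraries, 0 of 14339 genes (0%) passed an adjusted p of 0.05 in limma, where 250 had an unadjusted p under 0.05, and edgeR called 0 and DESeq2 4 (0.0279%). Endothelial markers were high in every library, with the summed count of 8 of them between 143844 and 153798 in Tbx1cko and between 155715 and 204113 in control. The cells also held leukocyte transcripts (8 markers summing to 66922 and 74189 in Tbx1cko, against 41496 to 69723 in control), so the integrin values are those of a mixed population. In such bulk libraries fewer cells of a type and less RNA per cell cannot be told apart.

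Of the 9 integrins, 0 passed the test in either direction, with all libraries or without control replicate 2. Beside that count stand the shares of all genes called, 0% with limma and 0.0279% with DESeq2 over all libraries, and 0.0209% with limma and 0.544% with DESeq2 without control replicate 2. With all libraries 5 log2 differences were positive and 4 negative, with a median of 0.22 beside 0.03 over all genes tested. Without control replicate 2 there were 3 positive and 6 negative, with a median of -0.07 beside 0.02 over all genes. The groups overlapped for 8 integrins and did not for Itgb4, which was lower in Tbx1cko, and this held with and without that library. The share of all genes whose groups did not overlap was 14.2% higher and 13.9% lower in Tbx1cko, or 19.7% and 17.8% without control replicate 2, so 1 lower integrin of 9 and 0 higher ones lie under the background.

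**Figure D1:**
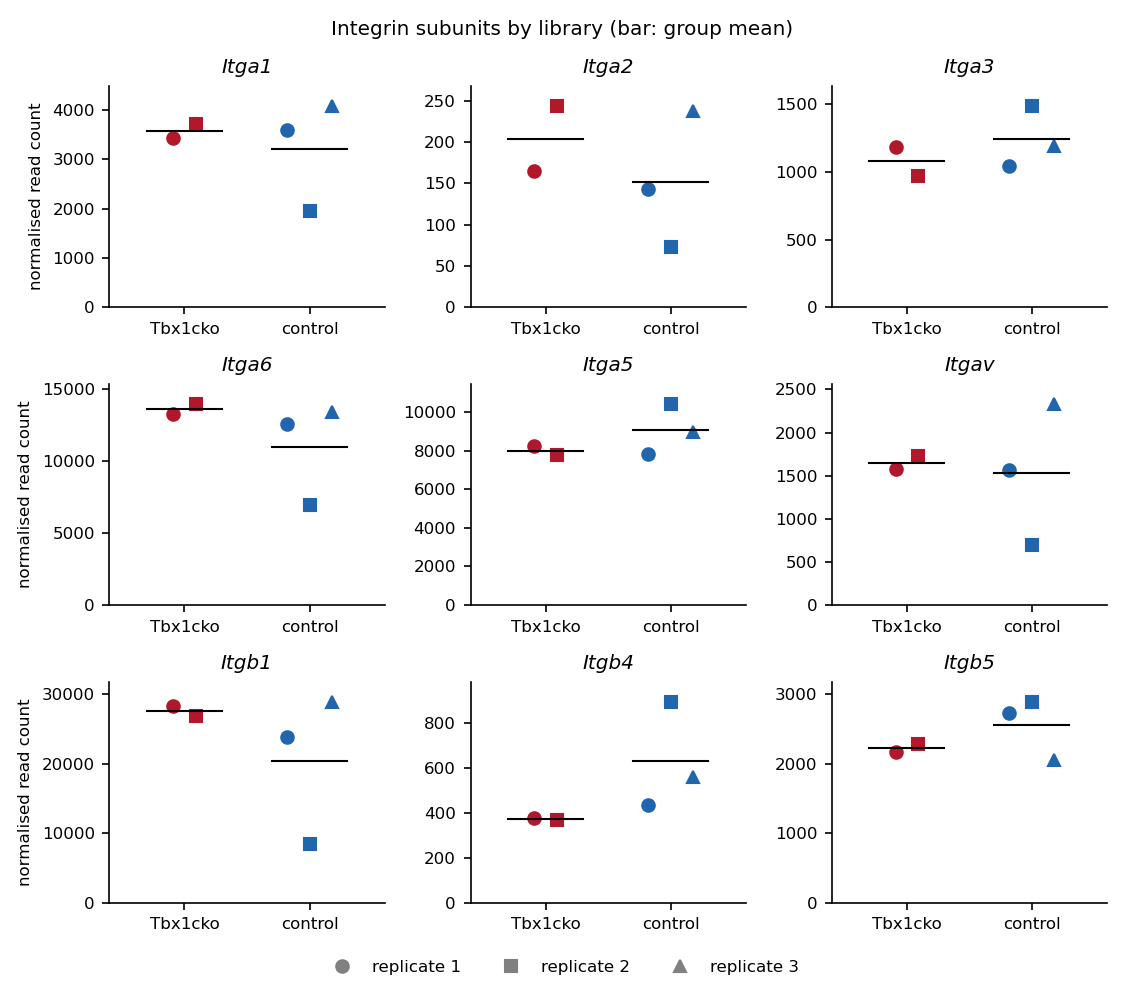
Normalised read count of each integrin (vertical axes, linear, from 0) in the 2 Tbx1cko (red) and 3 control (blue) libraries, with a bar at each group mean and a marker shape for the replicate number, which names a library and pairs none. Control replicate 2 (blue square) is the lowest point for Itga1, Itga2, Itga6, Itgav and Itgb1 and the highest for Itga3, Itga5, Itgb4 and Itgb5, and only for Itgb4 do both Tbx1cko points lie below every control.

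Per length, Itgb1 was by far the most abundant of the 9. It averaged 6750 ± 248 normalised reads per kb of exon in Tbx1cko (SD, n = 2) and 5010 ± 2610 in control (SD, n = 3). Itga5 followed with 1620 ± 65.1 reads per kb in Tbx1cko and 1840 ± 263 in control, and Itga6 with 1500 ± 57.1 in Tbx1cko and 1210 ± 387 in control. These are the main fibronectin and laminin alpha chains of the set, and which of them ranked higher depends on the length used: over the longest annotated transcript, Itga6 had 3150 ± 120 reads per kb in Tbx1cko and Itga5 1810 ± 72.8. Itgb5 came next, at 626 ± 24.8 in Tbx1cko and 721 ± 125 in control. Itga3 (189 ± 26.6 in Tbx1cko and 217 ± 39.3 in control), Itga1 (192 ± 10.9 in Tbx1cko and 173 ± 59.6 in control) and Itgav (154 ± 10.2 in Tbx1cko and 142 ± 76.3 in control) followed. The control means of these 3 chains differed by less than the control SD of Itgav, while in control the means of Itga1 and Itgav lay more than 1 SD of Itga3 below that of Itga3. The lowest were Itgb4, at 53.2 ± 0.89 in Tbx1cko and 89.9 ± 34.0 in control, and Itga2, at 28.6 ± 7.82 in Tbx1cko and 21.2 ± 11.6 in control.

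As shares of the summed reads per kb, Itga5 and Itga6 together made up most of the alpha signal. Itga5 took 45.2% and 42.8% in the Tbx1cko libraries and 45.2%, 63.6% and 45.7% in control replicates 1 to 3. Itga6 took 39.6% and 41.9% in Tbx1cko and 39.4%, 23.2% and 37.2% in control. Control replicate 2 is the exception for both chains. Among the 3 beta chains Itgb1 took 91.3% and 90.4% in Tbx1cko, against 87.6%, 68.9% and 91.5% in control.

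**Figure D2:**
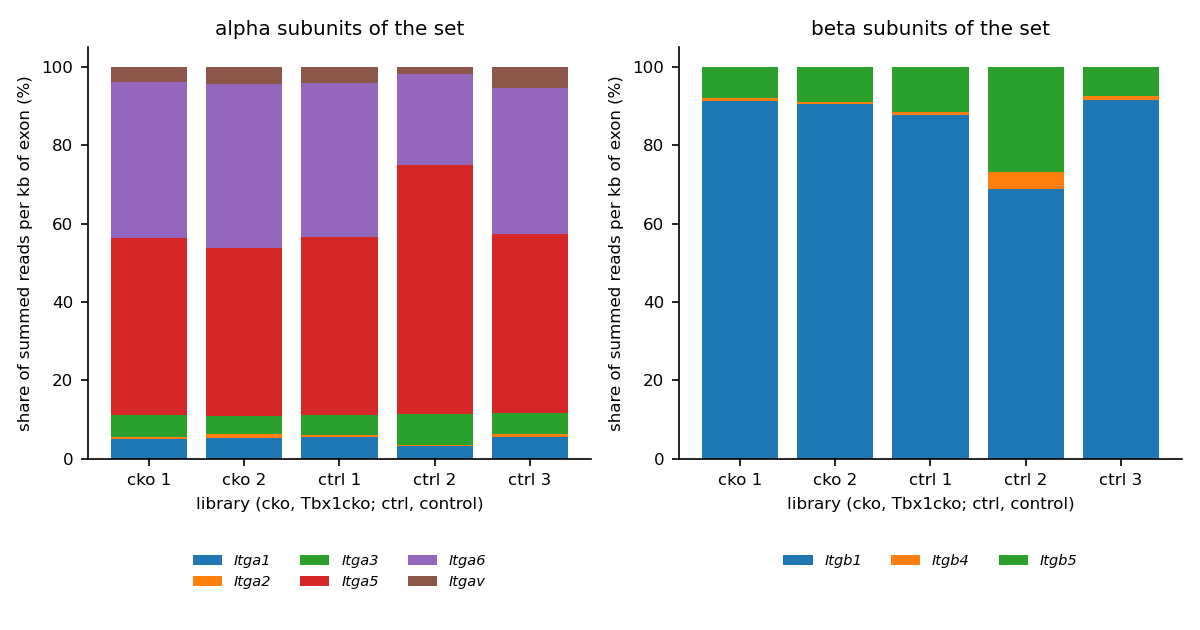
Stacked shares (%, vertical axis) of the 6 alpha chains (left) and 3 beta chains (right) in the summed normalised reads per kb of exon, for each library from Tbx1cko (cko 1, cko 2) to control (ctrl 1 to ctrl 3). The makeup is alike in 4 libraries, and control replicate 2 (ctrl 2) has less Itga6 (23.2%) and Itgb1 (68.9%) than the others.

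Itgb1, the shared beta chain, lies on the plus strand of chromosome 8 (128685654 to 128733200, GRCm38). It had 28282 and 26850 normalised reads in Tbx1cko and 23863, 8516 and 28934 in control. The Tbx1cko values lie between those of control replicates 1 and 3, and control replicate 2 is far below all others. With all libraries the log2 difference was 0.61 (SE 0.545, 95% interval -0.75 to 1.98, limma adjusted p = 0.762). Without control replicate 2 it was 0.07 (SE 0.158), with an interval of -0.28 to 0.42 and an adjusted p of 0.953. The wide first interval thus comes with 1 library, at 32.3% of the mean of the other 2 controls.

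The collagen receptors are Itga1 and Itga2, neighbours on the minus strand of chromosome 13. Itga1 (114953096 to 115101964), a chain of microvascular endothelium and smooth muscle, had 3424 and 3711 normalised reads in Tbx1cko and 3589, 1959 and 4078 in control. Its log2 difference was 0.22 (95% interval -0.66 to 1.1) and turned to -0.10 (interval -0.37 to 0.17) without control replicate 2. The direction of Itga1 is therefore not settled by these libraries. Itga2 (114833081 to 114932100), which platelets carry too, had 164.6 and 243.6 reads in Tbx1cko and 143.5, 72.7 and 238.1 in control, with groups that overlap. Its log2 difference was 0.56 (interval -0.8 to 1.92), or 0.11 (interval -0.47 to 0.7) without that control. Beside it, the summed count of 6 platelet markers was 3236 and 3694 in Tbx1cko and 1376 to 2393 in control, with 2 of the 6 higher and 1 lower without overlap (14.2% and 13.9% of all genes were) and none at 0 in a library. Most of that sum was Pf4, with 2923 and 2726 reads in Tbx1cko and 1049 to 1888 in control. Pf4 and Ppbp were the higher ones, and Gp1ba was the lower one (18.3 and 19.4 in Tbx1cko, 21.5 to 31.1 in control). Itga2b overlapped, at a log2 difference of 0.01, and so did Gp1bb. The part of platelets in the Itga2 values was not tested.

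Itga6, the alpha chain of the laminin receptors, lies on the plus strand of chromosome 2 (71745616 to 71858416). It had 13206 and 13935 normalised reads in Tbx1cko and 12525, 6956 and 13390 in control. Apart from control replicate 2 all libraries lay close together, and the log2 difference of 0.37 (SE 0.325) became 0.07 (SE 0.131, interval -0.22 to 0.36) without it. Itga3, the other laminin alpha chain (chromosome 11, minus strand, 95044474 to 95076801), had 1185 and 970.2 reads in Tbx1cko and 1045, 1486 and 1191 in control. Here control replicate 2 was the highest library. The log2 difference of Itga3 was -0.19 (interval -0.79 to 0.4), or -0.06 (interval -0.37 to 0.25) without it.

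Itgb4, the beta chain of the hemidesmosome, was the integrin with the smallest p in limma with all libraries and had no overlap between groups. It lies on the plus strand of chromosome 11 (115974709 to 116008412) and had 377.7 and 368.9 normalised reads in Tbx1cko, against 435, 896.8 and 560.8 in control. Both Tbx1cko libraries were below the lowest control. Tbx1cko averaged 373.3 ± 6.24 reads (SD, n = 2) and control 630.9 ± 239 (SD, n = 3), a log2 difference of -0.69 (SE 0.348, interval -1.56 to 0.18) or 1.61-fold lower. The test was not passed in limma, at an unadjusted p of 0.0998 and an adjusted p of 0.762. Without control replicate 2 the difference was -0.40 (SE 0.163, interval -0.76 to -0.04) or 1.32-fold lower, with an unadjusted p of 0.0315 and an adjusted p of 0.609 in limma, and an adjusted p of 0.634 in DESeq2. In limma without that library, 1070 of the 14339 genes tested had an unadjusted p under 0.05. Itgb4 has the highest GC content of the 9, at 60.0%. With all 5 libraries its difference of -0.69 stood beside a median of -0.40 over the 515 genes within 1 percentage point of that GC content. The GC-corrected difference of Itgb4 was -0.30 (limma unadjusted p = 0.17), or -0.25 without control replicate 2 (limma unadjusted p = 0.194). After that correction Itga1 had a smaller limma p with all libraries (0.0981), and Itgav had one without control replicate 2 (0.0711). Of its exon bases, 7.7% are shared with the antisense gene B230344G16Rik, which had 1.83 and 2.04 reads in Tbx1cko and 0.941 to 5.52 in control. Lymphatic endothelial markers lay lower as well: 6 of 6 had a negative log2 difference, 2 of them without overlap (13.9% of all genes were lower without overlap), and their summed count was 6729 and 7575 in Tbx1cko and 8400 to 10555 in control, with none at 0. Without control replicate 2, 4 of the 6 were lower without overlap, beside 17.8% of all genes, and DESeq2 called 3 of them lower, beside 0.321% of all genes. In limma 0 of them were called without that library. Markers of other cells lay lower too: with all libraries 4 of 4 endocardial, 7 of 8 endothelial and 7 of 8 mural markers had a negative log2 difference. Lower without overlap were 2 endocardial, 4 endothelial and 7 mural ones, beside the same 13.9% of all genes. The part of any of these cell types in the Itgb4 values was not tested.

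**Figure D3:**
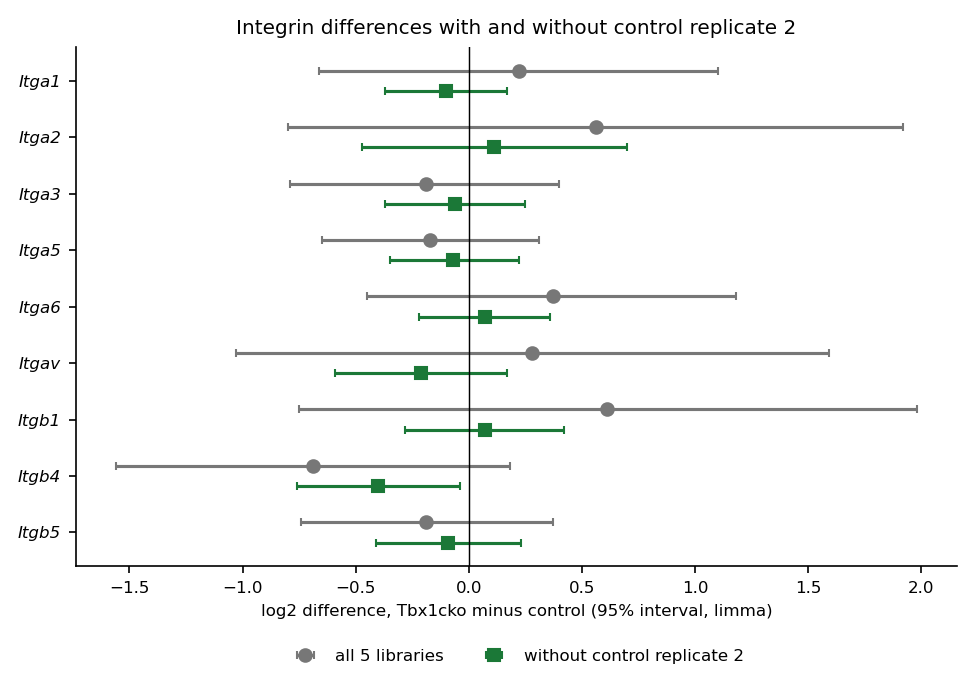
Log2 difference between Tbx1cko and control (horizontal axis, log2 of normalised count + 1) with 95% intervals from limma, with all 5 libraries (grey circles) and without control replicate 2 (green squares). The interval of Itgb1 spans -0.75 to 1.98 with all libraries and -0.28 to 0.42 without that one. Itgb4 is the one integrin whose narrower interval, -0.76 to -0.04, leaves out 0. In that narrower fit 1070 of the 14339 genes tested had an unadjusted p under 0.05.

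The fibronectin and vitronectin receptors, which recognise the RGD motif, are Itga5, Itgav and Itgb5. Itga5 (chromosome 15, minus strand, 103344286 to 103366763) had 8237 and 7783 normalised reads in Tbx1cko and 7847, 10435 and 8983 in control. Its groups overlap, and the log2 difference of -0.17 (interval -0.65 to 0.31) was -0.07 (interval -0.35 to 0.22) without control replicate 2. Itgav (chromosome 2, plus strand, 83724397 to 83806916) had 1574 and 1728 reads in Tbx1cko, against 1560, 693.5 and 2332 in control. The controls of Itgav spread more widely than the difference between the groups, which was 0.28 on the log2 scale (interval -1.03 to 1.59) and turned to -0.21 (interval -0.59 to 0.17) without that library. Of the exon bases of Itgav, 5.9% are shared with the antisense gene Gm13684, which had 7.32 and 7.13 reads in Tbx1cko and 5.52 to 11.3 in control. Itgb5 (chromosome 16, plus strand, 33829665 to 33949338) had 2163 and 2288 reads in Tbx1cko and 2733, 2892 and 2058 in control. Control replicate 3 lay below both Tbx1cko libraries and the other controls above them. The log2 difference of Itgb5 was -0.19 (interval -0.74 to 0.37), or -0.09 (interval -0.41 to 0.23) without control replicate 2.

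Ratios within a library compared the chains of 1 receptor (Itga6 and Itgb4) and chains that share a partner (Itga5 and Itgav, Itgb5 and Itgb1). The ratio of Itga6 to Itgb4 reads was 34.9 and 37.7 in Tbx1cko and 28.7, 7.75 and 23.8 in control, so both Tbx1cko libraries lay above all controls. The log2 ratio differed by 1.06 (exact permutation test, 2-sided, p = 0.2, the smallest p that 2 against 3 libraries allow, adjusted p = 0.6 over 3 ratios). This difference was 0.47 without control replicate 2 and 0.59 after GC correction of all libraries. Reads of Itga5 to Itgav stood at 5.23 and 4.5 in Tbx1cko and 5.03, 15.0 and 3.85 in control (difference -0.45 on the log2 scale, exact permutation p = 1). Those of Itgb5 to Itgb1 stood at 0.0765 and 0.0852 in Tbx1cko and 0.115, 0.34 and 0.0712 in control (difference -0.80, exact permutation p = 0.6), and this difference was -0.16 without control replicate 2 and -0.12 after GC correction. For these 2 ratios the groups overlap.

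The 9 genes fall into sets by GC content, which the choice of members did not use. Itga1, Itga2, Itgav and Itgb1 have transcripts of 42.8% to 44.8% GC and Itga6 of 48.9%, while Itga3, Itga5, Itgb4 and Itgb5 have 57.0% to 60.0%. In control replicate 2 the 5 genes of the first set deviated by -1.66 to -0.91 from the mean of the other 4 libraries on the log2 scale, and the 4 of the second by 0.33 to 1.06. Over the 9 genes the Spearman rho between GC content and this deviation was 0.767, and between GC content and the log2 difference -0.70, where all genes gave -0.714. Without control replicate 2 the coefficient between GC content and the log2 difference was -0.133 for the 9 and -0.306 for all genes. These coefficients describe genes that share the same libraries. Itgb1 deviated by -1.66, where the 1335 genes within 1 percentage point of its GC content had a median of -0.84, and Itga6 by -0.93, where 1461 such genes had a median of -0.08.

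**Figure D4:**
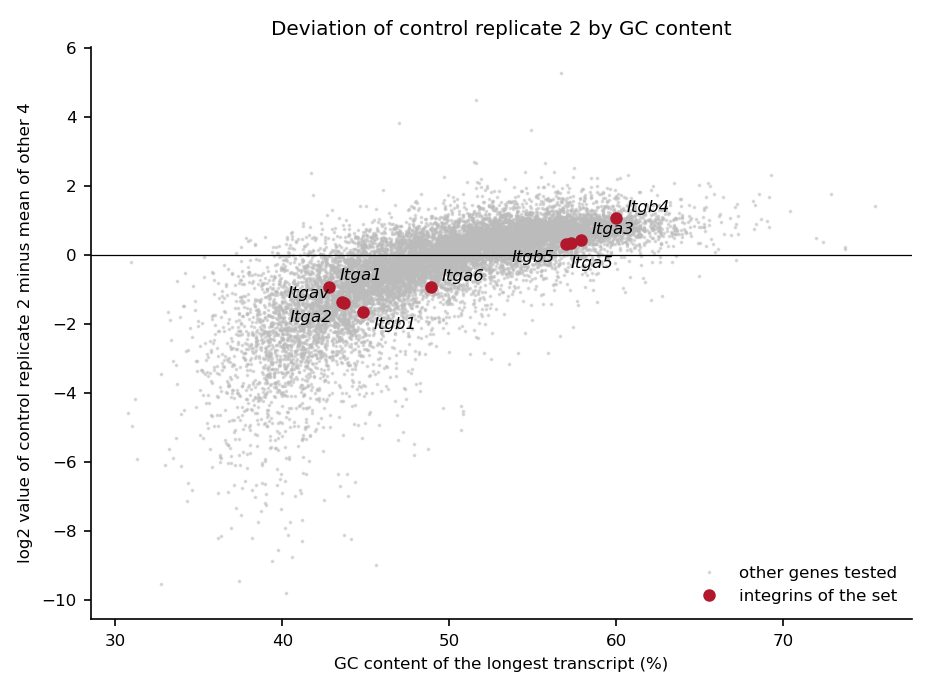
Log2 value of control replicate 2 minus the mean of the other 4 libraries (vertical axis) against the GC content of the longest transcript (%, horizontal axis) for 13748 genes tested, with the integrins in red. The integrins run from Itgb1 at -1.66 to Itgb4 at 1.06. Itgb1 and Itga6 (-0.93) lie below the medians of genes of like GC content (-0.84 and -0.08). The spread around these medians was not computed.

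The genes whose profile over the 5 libraries was most like that of Itgb1, among 6025 others with a mean count of at least 500, were Rnf141, Foxn2, Ppip5k2 and Rpe. Their centred log2 values differed from those of Itgb1 by a root mean square of 0.00618, 0.0368, 0.0417 and 0.0467. Nearest to Itgb4 were Ntn1 (0.0712), Arhgef10 (0.085), Zdhhc1 (0.105) and Clasrp (0.108). No member is among them: Itgav, the closest member to Itgb1, differed by 0.21 with 536 genes closer, and Itga3, the closest to Itgb4, by 0.308 with 1333 genes closer. The profile of Itga6 differed from that of its partner Itgb4 by 0.829 and from that of Itgb1 by 0.301. These profiles include control replicate 2 and were not computed without it. In that library Rnf141 had 299.9 normalised reads, against 840.6 to 1009 in the others, and Ntn1 2078, against 778.6 to 1141. The part of GC content in these likenesses was not tested.

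Of the integrin genes outside the 9, a list of 10 other matrix-binding or platelet subunits, 9 had reads and 0 passed limma, with a median log2 difference of 0.01. Itga7, a laminin-binding alpha chain of muscle, had the smallest unadjusted p of this list: it had 566.1 and 546.2 normalised reads in Tbx1cko, against 1112, 1957 and 798.9 in control. Both Tbx1cko libraries lay below every control, at a log2 difference of -1.11 (SE 0.403, limma adjusted p = 0.762), or -0.76 without control replicate 2, where DESeq2 called it lower (adjusted p = 0.0153) and limma did not (adjusted p = 0.225). DESeq2 without that library called 0.321% of all genes lower, so 1 of 9 here stands above the background but is a single gene. Of 8 mural cell markers 7 were lower in Tbx1cko without overlap, beside 13.9% of all genes, their summed count was 35687 and 38505 in Tbx1cko and 41281 to 56224 in control, and none was at 0 in any library. DESeq2 without control replicate 2 called 5 of them lower, beside 0.321% of all genes, and limma without that library called 0 of them. Their part in the Itga7 values was not tested. Itga4, a fibronectin receptor chain of leukocytes, had 766.4 and 1011 reads in Tbx1cko and 613.5, 100.3 and 714.2 in control, without overlap, at a log2 difference of 1.31 (limma adjusted p = 0.762) that was 0.41 without control replicate 2. Of the 8 leukocyte markers 3 were also higher in Tbx1cko without overlap, beside 14.2% of all genes, and none was at 0 in any library. Their part in the Itga4 values was not tested. Itgb3, the platelet and endothelial partner of Itgav, had 1569 and 1446 reads in Tbx1cko and 913, 1180 and 1551 in control, which overlap.

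The partners of Itgb4 in the hemidesmosome showed the same direction without passing the test. In this list of 7, 0 were called in limma and 7 had a negative log2 difference, with a median of -0.39 that was -0.20 without control replicate 2, and 4 were lower without overlap, where 13.9% of all genes were. Plec, the cytolinker plectin that binds the Itgb4 tail, had 7782 and 9110 normalised reads in Tbx1cko and 9940, 13967 and 9828 in control. Its GC-corrected log2 difference was 0.03, against -0.40 uncorrected. Lama3, an alpha chain of the laminins that Itgb4 binds, had 822.2 and 841.8 reads in Tbx1cko, against 932.2, 1284 and 1094 in control. Cd151, the tetraspanin that holds laminin-binding integrins together, had 3589 and 3450 reads in Tbx1cko and 4531, 6506 and 3593 in control. The lowest control value of Cd151 was almost level with the higher Tbx1cko one. Dst, a plectin relative, had 7149 and 8264 in Tbx1cko and 8377, 11719 and 8861 in control. Cdh1, the cadherin of epithelial cells, was at 23.8 and 23.4 reads in Tbx1cko and 16.0 to 22.1 in control. The other epithelial markers listed, Krt5, Krt14 and Epcam, were not among the deposited genes.

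Among 22 ligands of these receptors with reads, 0 passed limma, 7 log2 differences were positive and 15 negative, and the median was -0.13. Vtn, vitronectin, the ligand of the Itgav receptors, had 216.8 and 282.3 normalised reads in Tbx1cko, against 689.2, 1231 and 431.9 in control. All Tbx1cko values of Vtn lay below the controls, at a log2 difference of -1.53 (SE 0.471, limma adjusted p = 0.762). Without control replicate 2 DESeq2 called it lower (-1.18, adjusted p = 0.00247), beside 0.321% of all genes. There limma (adjusted p = 0.214) and edgeR (adjusted p = 0.223) did not call Vtn. Vtn is also made by pericytes, and mural cell markers are given above. The part of these cells in the Vtn values was not tested. Spp1, osteopontin, a ligand of the Itgav receptors that macrophages secrete, had 14778 and 16215 reads in Tbx1cko, against 5457, 4637 and 11284 in control. The log2 difference of Spp1 was 1.23 (SE 0.408), or 0.70 after GC correction, with an adjusted p of 0.762 in limma and 0.881 in DESeq2 without control replicate 2. Lama5, the laminin chain of the vascular basement membrane, had 6090 and 6669 reads in Tbx1cko and 8255, 14294 and 7581 in control, and Cyr61, an integrin-binding matricellular protein, 7805 and 6892 in Tbx1cko and 9835, 15835 and 9250 in control. Their groups did not overlap and neither passed limma, at an adjusted p of 0.762 each.

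Of 22 cytoplasmic activators and adaptors with reads, 0 passed limma, 7 were lower without overlap and 1 was higher (13.9% and 14.2% of all genes were), and the median log2 difference was -0.28, or -0.09 with control replicate 2 left out. Bcar1, the adhesion scaffold p130Cas, had 1673 and 1574 normalised reads in Tbx1cko, against 2539, 3910 and 2118 in control. Its log2 difference was -0.77 (SE 0.302, limma adjusted p = 0.762), or -0.51 without that library, with a DESeq2 adjusted p of 0.0618, and -0.37 after GC correction. Radil, a Rap1 effector, had 49.4 and 36.7 reads in Tbx1cko and 79.1, 122.3 and 64.9 in control, and Src, the kinase, 98.8 and 119.2 in Tbx1cko and 148, 159.1 and 147.7 in control. Vcl, vinculin, had 2141 and 2188 in Tbx1cko and 2381, 3654 and 2891 in control. The log2 differences of Radil, Src and Vcl were -0.99, -0.48 and -0.44 with all libraries. Without control replicate 2 they were -0.74, -0.44 and -0.28. After GC correction of all libraries they were -0.60, -0.11 and -0.52. Tln1, talin, which joins most beta tails to actin, had 11145 and 10173 in Tbx1cko and 11563, 17577 and 10873 in control. Fermt2, the kindlin of most tissues, had 5089 and 4894 in Tbx1cko and 4993, 3371 and 5575 in control. The groups of Tln1 and Fermt2 overlap, and these 2 genes were named for their role after their values were seen.

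Of 13 genes that hold integrins inactive or move them through the cell, 0 passed limma, 7 differences were positive and 6 negative, and the median was 0.02 with all libraries and without control replicate 2. Krit1, which binds the Itgb1 inhibitor encoded by Itgb1bp1, had 968.6 and 1024 normalised reads in Tbx1cko and 858.7, 264.9 and 926.8 in control. Its groups did not overlap, but the log2 difference of 0.74 was 0.16 without control replicate 2 and -0.22 after GC correction. Flna, filamin, which competes with talin, had 20068 and 17675 reads in Tbx1cko and 19431, 29557 and 21008 in control, and Rab11a, a GTPase of integrin recycling, 2300 and 2129 in Tbx1cko and 1994, 849 and 2217 in control, with overlap for both.

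**Figure D5:**
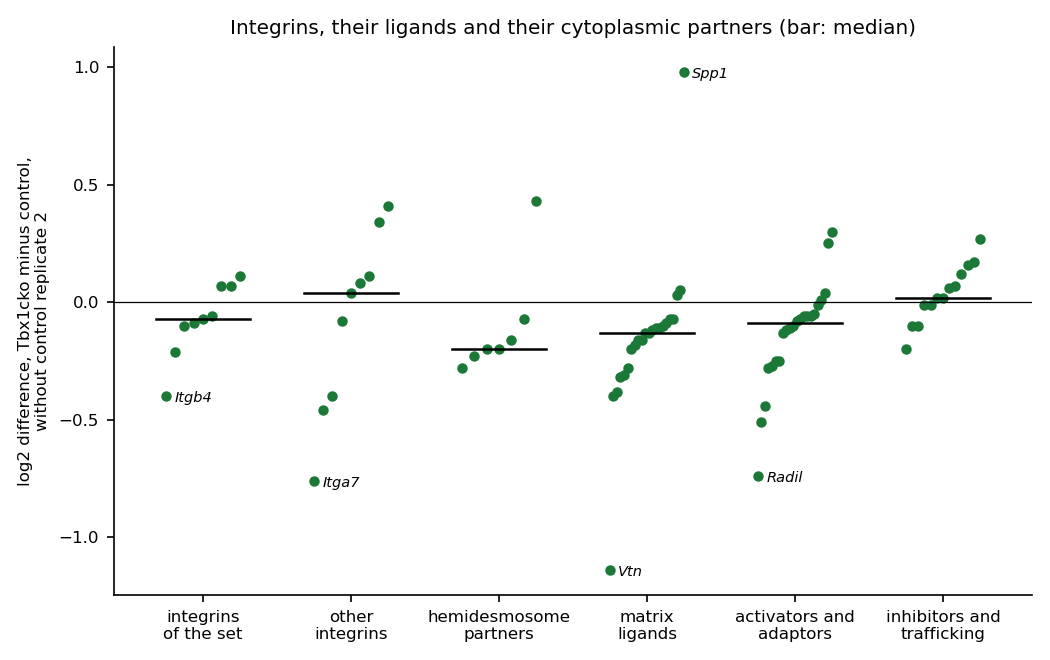
Log2 difference between Tbx1cko and control without control replicate 2 (vertical axis) for each tested gene of the integrin set and of 5 lists of related genes (horizontal axis), with a bar at each median. The 9 integrins lie between -0.40 (Itgb4) and 0.11 (Itga2), and Itga7, Vtn, Radil and Spp1 lie farthest from 0.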

How the data were processed

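Sample titles gave the groups and the replicate numbers. Per the submitters' processing notes, the build was GRCm38 (mm10) and STAR 2.5.2b, R 3.5.1, DESeq and DESeq2 1.20.0 were among the tools. For the counter, annotation and strand setting nothing is given in the sources used here, and reads of overlapping genes cannot be assigned. The deposited signal of a gene is its read count over the size factor of the library: 100% of the values gave whole reads within 0.01. The 14339 genes with a mean of at least 10 normalised reads were tested 2-sided with limma 3.58.1 (R 4.3.3) on log2(value + 1), with a genotype term alone and a prior trended on the mean, and Benjamini-Hochberg adjusted p-values were read at 0.05. The pseudocount understates the change of low genes. edgeR 4.0.16 and DESeq2 1.42.0 were run on the recovered reads. GC content (of the longest transcript), exon lengths and positions came from GENCODE M21, which matched 16741 symbols to 1 gene and gave 95.9% of the genes tested a GC value. The GC correction was a loess per library (span 0.3). Replicates differed beyond sampling noise (chi-square per degree of freedom from 13.1 to 187). The scripts were tested on simulated data. The integrins and the lists were chosen with earlier results of these data known. Named genes are the 9 members, Tbx1, up to 4 genes per list with the smallest unadjusted p, and the 4 nearest profiles of Itgb1 and of Itgb4. Tln1, Fermt2, Ilk, Parva, Lims1 and Rap1b, and Taf10 beside Ilk, are not named by this rule: their values were known when they were picked. Itga11, in the list of other integrins, falls under that rule and had 16.5 and 55.0 reads in Tbx1cko and 40.5 to 42.3 in control.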

Additional observations from a re-analysis of the deposited data

How the results depend on the processing

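Over 17 alternatives 0 of the 9 integrins were called, with a lowest adjusted p of 0.319 (Itgb1, with the replicate number as a block). Pseudocounts of 0.5 and 5, no filter or a filter at 50, and TMM scaling called 0 genes and turned no integrin. Over all 17, 3 integrins kept their sign: Itga2 (0.03 to 0.96), Itga6 (0.05 to 0.54) and Itgb4 (-0.92 to -0.25). The count of all genes called was 0 in limma. It was 3 with the replicate block, 4 with DESeq2, 0 to 3 leaving out a library in turn, and, without control replicate 2, 1 with edgeR and 78 with DESeq2. The median of the integrins, 0.22, was 0.43 with the replicate block, -0.07 to 0.43 leaving out a library in turn, -0.08 with edgeR or DESeq2 without control replicate 2, and 0.00 with GC correction without it. Without control replicate 2 the log2 differences of Itga1 and Itgav turned negative, at -0.10 and -0.21 in limma and -0.12 and -0.25 with edgeR and with DESeq2. Over the libraries left out in turn they were -0.10 to 0.43 and -0.21 to 0.66. After GC correction of all libraries 5 turned, Itga1 to -0.36, Itgav to -0.23, Itga3 and Itga5 to 0.13 and Itgb5 to 0.11. After GC correction without control replicate 2 they were -0.19, -0.30, 0.06, 0.03 and 0.00, and Itgb1 was -0.01. The number of integrins without overlap, 1 with all libraries, was 1 to 6 leaving out a library in turn. It was 3 without control 1 (0 higher, 3 lower), 6 without control 3 (4 higher, 2 lower) and 5 without Tbx1cko 1 (2 higher, 3 lower). The share of all genes beside these counts was not computed, so they are not read as a result about the integrins. Without control 2 that share was 19.7% higher and 17.8% lower, against 14.2% and 13.9% with all libraries. The ratio of Itga5 to Itgav turned from -0.45 to 0.14 without control replicate 2 and to 0.36 after GC correction, and over the libraries left out in turn it was -0.84 to 0.14. The cause of these changes was not tested. The replicate numbers are not stated to pair libraries, and the deviations of same-numbered libraries from their group means correlated at -0.06 and -0.05. With 2 libraries against 3 the precision is low, and where a Tbx1cko library was left out the lone one was assumed to vary like the controls.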

Other observations

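Ilk, which encodes the integrin-linked kinase that binds the tails of Itgb1, was listed at 10.98 and 3.06 normalised reads in Tbx1cko and at 11.3, 23.9 and 4.71 in control. Its binding partners were far higher: Parva had 3105 and 2810 reads in Tbx1cko and 2531 to 3172 in control, and Lims1 4151 and 4051 in Tbx1cko and 1393 to 4653 in control. In GENCODE M21, 89.7% of the exon bases of Ilk are shared with exons of 2 genes on the opposite strand, 76.7% with Taf10 and 12.9% with Rrp8. Taf10 had 257 to 364 reads in Tbx1cko and 312 to 403 in control. How the authors' counting treated reads that fall in 2 genes was not tested. Ilk, Parva, Lims1 and Rap1b were named after their values were seen. Rap1b, a GTPase that activates integrins, had 7778 and 7309 reads in Tbx1cko, against 7157 and 7518 in control replicates 1 and 3 and 716.5 in control replicate 2.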
